A study of Mus musculus with 24 samples.

Results

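The circadian clock genes described here are Arntl, Clock, Npas2, Per1, Per2, Per3, Cry1, Cry2, Nr1d1 and Dbp. They were chosen by symbol, as 10 of the 54532 genes in the table of FPKM values (fragments scaled by gene length and library size), and were followed over all 24 libraries. The study asked how magnesium in mitochondria bears on metabolism under an obesogenic diet, and its knocked-out gene, Mrs2, encodes a magnesium channel that sits in the inner membrane of mitochondria. RNA came from liver and from inguinal white adipose tissue (iWAT), each crushed whole at cryogenic temperature, with 50 mg of liver or 100 mg of iWAT taken. Lymph nodes had been removed from the iWAT. The mice were 13 weeks old at the start of feeding and were fed for 52 weeks. The 8 groups were Mrs2 KO on Western diet (WD), WT on WD, Mrs2 KO on chow and WT on chow, each in liver and in iWAT, with 3 libraries a group described as separate mice. The sources used here give neither strain nor sex, nor how the Mrs2 allele was made, nor, which matters most for these genes, the hour of collection.

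The mammalian clock is a feedback loop of transcription. Arntl (also called Bmal1) pairs with Clock or with its close relative Npas2 and activates genes that carry E-box motifs, among them the Per and Cry genes, Nr1d1 and Dbp. The Per and Cry proteins return to the nucleus and inhibit the Arntl and Clock proteins. Nr1d1 (Rev-erb alpha) represses the Arntl and Npas2 genes through ROR response elements (ROREs), and Dbp is an output factor that binds D-boxes. In liver and adipose tissue of the mouse most of these transcripts oscillate over the day with a large amplitude, those of Arntl, Clock and Npas2 out of phase with those of Dbp and the Per genes, and feeding time shifts their phase. A single collection per mouse therefore samples each gene at 1 unknown point of its cycle.

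The motifs of this loop can be read in the promoters. RefSeq promoter sequences (GRCm38.p6, the assembly of mm10), from 250 bases before to 50 bases after an annotated start were matched for 9 of the 10 members, all but Per2. They were searched on both strands for the E-box CACGTG, the RORE core TAGGTNA and the D-box TTATGTAA, which do not overlap in any hit printed here. For each of the 4 genes with a match, 1 window is shown 5′ to 3′ on the strand of the gene, with the match in capitals, because they show the arms of the loop that link the members: a RORE core at 6 bases before and 30 bases after a start of Arntl (chr7:113207261-113207560, plus strand), an E-box 166 bases before a start of Per1 (chr11:69098699-69098998, plus strand) and 60 bases before the start of Cry1 (chr10:85185005-85185304, minus strand), and D-boxes 205 and 158 bases before the start of Per3 (chr4:151044616-151044915, minus strand). In a further Arntl window (chr7:113207215-113207514) the RORE core lay 40 bases after the start. A further Per1 window (chr11:69099902-69100201) held no match. Of 32851 promoters of the same length, 7.15% held the E-box, 8.29% the RORE core and 0.938% the D-box, so the first 2 motifs are common. The windows of Clock, Npas2, Cry2, Nr1d1 and Dbp held none of these letters, which says nothing of the factors themselves, and a match describes letters only.
Arntl: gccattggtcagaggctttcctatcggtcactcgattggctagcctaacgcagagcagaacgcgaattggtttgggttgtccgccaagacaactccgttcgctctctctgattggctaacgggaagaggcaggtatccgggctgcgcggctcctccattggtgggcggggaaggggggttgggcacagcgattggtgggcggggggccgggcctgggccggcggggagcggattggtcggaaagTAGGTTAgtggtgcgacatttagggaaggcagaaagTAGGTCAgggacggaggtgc
Per1: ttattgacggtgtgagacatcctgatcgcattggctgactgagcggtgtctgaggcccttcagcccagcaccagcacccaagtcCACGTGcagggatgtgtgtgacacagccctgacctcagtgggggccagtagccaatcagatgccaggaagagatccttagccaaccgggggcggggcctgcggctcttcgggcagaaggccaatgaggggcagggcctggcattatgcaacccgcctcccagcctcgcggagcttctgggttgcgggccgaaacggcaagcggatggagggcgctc
Cry1: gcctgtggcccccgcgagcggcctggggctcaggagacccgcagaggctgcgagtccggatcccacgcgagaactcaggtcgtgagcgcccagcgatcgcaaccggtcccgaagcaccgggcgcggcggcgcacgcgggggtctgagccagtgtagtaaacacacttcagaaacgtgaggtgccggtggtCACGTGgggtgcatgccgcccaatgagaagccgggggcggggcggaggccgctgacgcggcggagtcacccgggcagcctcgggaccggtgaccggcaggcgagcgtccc
Per3: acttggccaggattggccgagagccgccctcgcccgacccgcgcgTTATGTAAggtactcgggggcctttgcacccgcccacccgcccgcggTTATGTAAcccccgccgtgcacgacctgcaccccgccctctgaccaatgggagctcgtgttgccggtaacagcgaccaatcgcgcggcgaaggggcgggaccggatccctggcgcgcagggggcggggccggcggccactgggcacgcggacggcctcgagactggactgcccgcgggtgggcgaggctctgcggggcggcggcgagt

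All members lie at the same mm10 positions in the deposited table and in GENCODE vM21: Arntl at chr7:113207465-113314126 (+), Clock at chr5:76209868-76304792 (-), Npas2 at chr1:39193731-39363236 (+), Per1 at chr11:69095217-69109960 (+), Per2 at chr1:91415982-91459324 (-), Per3 at chr4:151003652-151044665 (-), Cry1 at chr10:85131700-85185064 (-), Cry2 at chr2:92403646-92434043 (-), Nr1d1 at chr11:98767932-98775333 (-) and Dbp at chr7:45705088-45710203 (+). The values count reads over all exons of a gene, untranslated regions included. The sources used here do not state whether counting used strand, and 4 members share exonic bases with a gene on the other strand, so those reads cannot be told apart. The overlap is 539 bases (18% of the exonic length) between Dbp and Sphk2 and 263 bases (8.55%) between Nr1d1 and Thra. It is 295 bases (4.67%) for Cry2 with D930015M05Rik and 33 bases (0.439%) for Arntl with Gm45355. Sphk2 stood at 10.8 to 26.9 FPKM in liver and 3.15 to 6.46 FPKM in iWAT, and Thra at 2.74 to 5.79 FPKM in liver and 10.3 to 22 FPKM in iWAT.

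Libraries held 14717613 to 19538975 reads in liver and 15358324 to 20354594 reads in iWAT. Hepatocyte markers (Alb, Apoa1 and 4 others) summed to 24006 to 78090 FPKM in liver and 25.4 to 1041 FPKM in iWAT, and adipocyte markers (Adipoq, Plin1 and 4 others) to 8.71 to 57.4 FPKM in liver and 3502 to 5669 FPKM in iWAT, so each tissue matched its label. Mrs2 itself, read over all of its exons, stood at 1.95, 1.68 and 1.6 FPKM in KO WD iWAT, against 5.01, 2.74 and 4.72 FPKM in WT WD iWAT, and at 2.05, 1.74 and 2.25 FPKM in KO chow iWAT, against 4.48, 4.67 and 3.87 FPKM in WT chow iWAT. In chow liver it stood at 3.9, 4.47 and 4.16 FPKM in KO, against 6.26, 5.87 and 6.5 FPKM in WT. In WD liver the labels were not separated by it, with 4.1, 5.21 and 4.21 FPKM in libraries labelled KO, against 5.1, 4.1 and 5.11 FPKM in libraries labelled WT (limma log2 fold change -0.07 ± 0.10 SE, adjusted p = 0.692). The sources used here do not state which exons the allele removes, so reads from the remaining exons may count. For WD livers, KO and WT below stand for the label of the library.

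Of the activating arm, Arntl and Npas2 had the lowest mean FPKM of the 10 members in both tissues. Arntl, in FPKM of replicates 1, 2 and 3, stood at 1.54, 0.205 and 2.17 in KO WD liver, 1.1, 1.38 and 0.986 in WT WD liver, 0.165, 0.253 and 0.82 in KO chow liver and 1.25, 1.1 and 0.0539 in WT chow liver. These values rest on 5 to 192 reads a library. Mice of 1 group thus differed widely: replicate 2 was far below the others in KO WD liver and replicate 3 in WT chow liver, where the highest value was 23.1 times the lowest. In iWAT Arntl stood at 1.79, 0.629 and 3.39 FPKM in KO WD, 0.773, 2.78 and 1.57 FPKM in WT WD, 0.373, 0.298 and 0.822 FPKM in KO chow and 1.16, 0.288 and 0.52 FPKM in WT chow. The KO WD mouse with the least Arntl in liver carried the same number as the one with the least in iWAT, and in both tissues KO and WT overlapped on each diet, as did WD and chow in each genotype.

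Clock, the partner of Arntl, was steadier, at 2.2 to 7.04 FPKM in liver (median 4.21) and 1.86 to 7.07 FPKM in iWAT (median 3.66). Within groups its highest library was 1.33 to 2.4 times its lowest in liver and 1.25 to 2.4 times in iWAT. Npas2, the alternative partner, did not reach the mean of 0.5 FPKM asked of tested genes, with a mean of 0.26 FPKM in liver and 0.322 FPKM in iWAT. In liver it stood at 0.629, 0.0307 and 0.799 FPKM in KO WD, 0.364, 0.569 and 0.348 FPKM in WT WD, 0.0811, 0.0331 and 0 FPKM in KO chow and 0.204, 0.032 and 0.0339 FPKM in WT chow. Apart from replicate 2 of KO WD, the WD livers thus lay above all chow livers, on 45 reads at most, and this difference was not tested. The other 9 members passed the filter in both tissues.

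In the repressing arm, Per2 stood at 3.68, 13.7 and 3.81 FPKM in KO WD liver, 8.58, 7.76 and 5.79 FPKM in WT WD liver, 15.3, 17.5 and 18.1 FPKM in KO chow liver and 4.7, 17.8 and 19.0 FPKM in WT chow liver. Chow livers were high apart from replicate 1 of WT, and WD livers low apart from replicate 2 of KO. In iWAT Per2 stood at 1.98, 5.09 and 1.45 FPKM in KO WD, 5.82, 2.71 and 2.84 FPKM in WT WD, 9.19, 11.5 and 8.38 FPKM in KO chow and 3.4, 16.4 and 9.91 FPKM in WT chow. The same 2 labels stood out there, replicate 2 of KO WD above its group and replicate 1 of WT chow below its own.

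Per3, which has the D-boxes shown above, stood at 2.87, 13.1 and 1.98 FPKM in KO WD liver, 6.47, 2.97 and 3.95 FPKM in WT WD liver, 10.9, 9.44 and 7.68 FPKM in KO chow liver and 7.05, 6.06 and 14.5 FPKM in WT chow liver. Its KO WD livers spread 6.58-fold, with replicate 2 above 10 of the other 11 livers. In iWAT it stood at 3.04, 10.2 and 2.67 FPKM in KO WD, 9.21, 3.7 and 5.58 FPKM in WT WD, 15.8, 18.5 and 11.8 FPKM in KO chow and 9.77, 19.7 and 16.8 FPKM in WT chow. Chow iWAT lay above WD iWAT apart from replicate 1 of WT chow and replicate 2 of KO WD, which overlapped. Per1, which also answers to glucocorticoids and feeding, ranged over 2.94 to 15.3 FPKM in liver (median 6.59) and 4.9 to 20.5 FPKM in iWAT (median 9.21).

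Cry1, a repressor that peaks late in the cycle, stood at 3.87, 3.19 and 3.44 FPKM in KO WD liver, 2.29, 2.5 and 1.26 FPKM in WT WD liver, 4.17, 9.1 and 12.2 FPKM in KO chow liver and 1.88, 12.3 and 5.2 FPKM in WT chow liver. All KO WD livers lay above all WT WD livers, while the 2 chow groups overlapped. In iWAT Cry1 kept to 1.81 to 5.9 FPKM. Cry2, its paralog, was the most even member in liver, with a highest library 1.97 times the lowest over all 12. It stood at 8.12, 12.2 and 9.14 FPKM in KO WD liver, 6.2, 6.84 and 6.99 FPKM in WT WD liver, 11.1, 10.6 and 10.1 FPKM in KO chow liver and 9.17, 9.57 and 10.1 FPKM in WT chow liver. WT WD livers were the lowest, below every other liver. In iWAT Cry2 stood at 8.26, 9.43 and 11 FPKM in KO WD, 11.6, 10.3 and 11.2 FPKM in WT WD, 11, 10.7 and 7.67 FPKM in KO chow and 12.1, 11.8 and 7.67 FPKM in WT chow, and all groups overlapped there.

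Nr1d1, the repressor of Arntl, stood at 57.2, 43.2 and 46.9 FPKM in KO WD liver, 20.6, 24.2 and 37.6 FPKM in WT WD liver, 22.5, 8.07 and 14.9 FPKM in KO chow liver and 58.2, 6.08 and 17.7 FPKM in WT chow liver. KO WD livers were high and close together, whereas the WT chow livers spanned a 9.57-fold range that covered both WD groups. In iWAT Nr1d1 stood at 45.2, 46.4 and 41.6 FPKM in KO WD, 44.8, 25.1 and 39.6 FPKM in WT WD, 33.2, 30.0 and 20.2 FPKM in KO chow and 54.2, 13.3 and 39.1 FPKM in WT chow. KO WD iWAT was again even, and again the WT chow libraries held both the highest and the lowest value of the tissue.

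Dbp, the output factor, stood at 24.9, 67.4 and 22.7 FPKM in KO WD liver, 24.9, 16.1 and 29.4 FPKM in WT WD liver, 49.1, 33.4 and 20.7 FPKM in KO chow liver and 34.4, 10.4 and 72.1 FPKM in WT chow liver. In iWAT it stood at 8.51, 34.4 and 6.33 FPKM in KO WD, 21.9, 5.43 and 10.9 FPKM in WT WD, 34.5, 45.2 and 24 FPKM in KO chow and 20.5, 24.2 and 54.1 FPKM in WT chow. Replicate 2 of KO WD was far above its group in both tissues, as it was for Per2 and Per3, and all 4 liver groups overlapped.

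**Figure D1:**
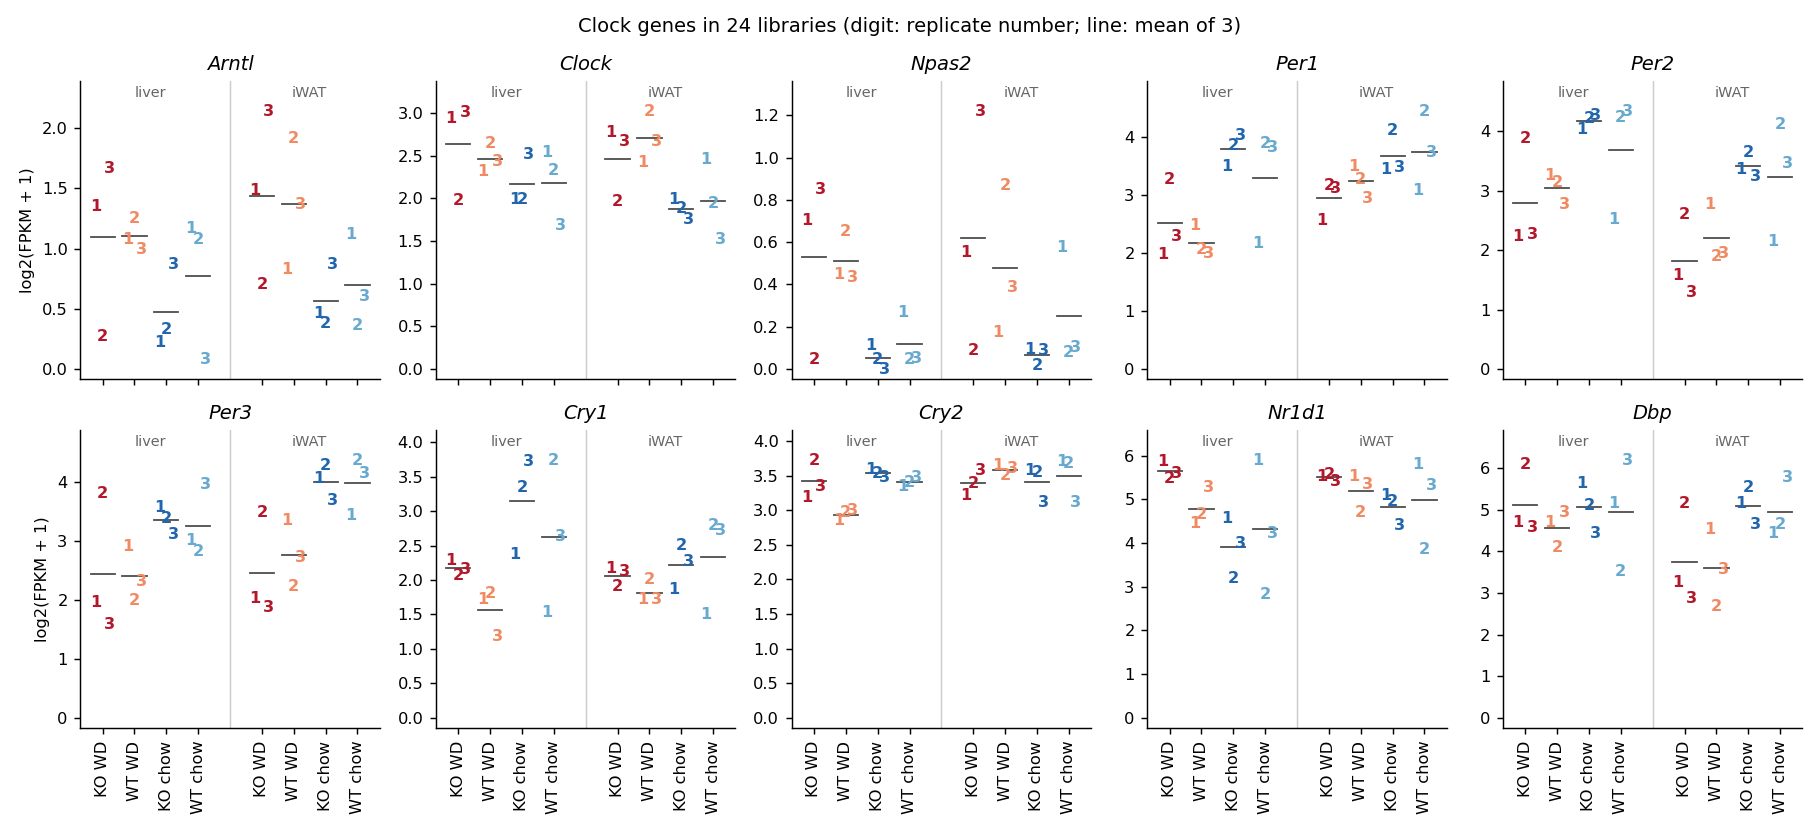
Log2(FPKM + 1) of the 10 clock genes in each library, by group and tissue; each digit is 1 library, printed as its replicate number, and each line is the mean of 3 libraries. Replicate 2 of KO WD sits away from the other KO WD libraries for Arntl, Per2, Per3 and Dbp in both tissues, and the Cry2 values lie close together, with WT WD liver lowest.

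Apart from Cry2 in liver, the members thus varied more between mice of 1 group than a gene of these tissues usually did. The residual SD, the spread of log2(FPKM + 1) around the group means in a tissue, was 0.879 for Dbp, 0.874 for Nr1d1, 0.72 for Per3 and 0.708 for Per2 in liver, where the median of 14019 tested genes was 0.186. Cry2 had 0.149. The residual SD was above the median gene for 8 of 9 tested members in liver and 9 of 9 in iWAT, and above the 90th percentile for 7 in liver and 4 in iWAT. In iWAT it was 0.873 for Dbp, 0.668 for Per2 and 0.602 for Per3, against a median gene at 0.184, and 0.233 for Cry2. Within a group the highest library was at least 4 times the lowest in 8 of 36 cases in liver (a member in a group) and in 6 of 36 in iWAT, and 5 of those 8 were in WT chow liver. Replicate 2 of KO WD stood apart from its group, farther from both others than these were from each other, for 7 of 9 members in liver and 6 of 9 in iWAT. In liver it was above for 5 and below for 2, and in iWAT above for 3 and below for 3. By this rule 1 library of 3 stands apart for nearly every gene, and the counts over all genes were not taken. Replicate 3 of KO chow iWAT also stood apart for 6 of 9 members. Replicate 1 of WT chow iWAT and replicate 2 of WT WD iWAT did so for 5 each.

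**Figure D2:**
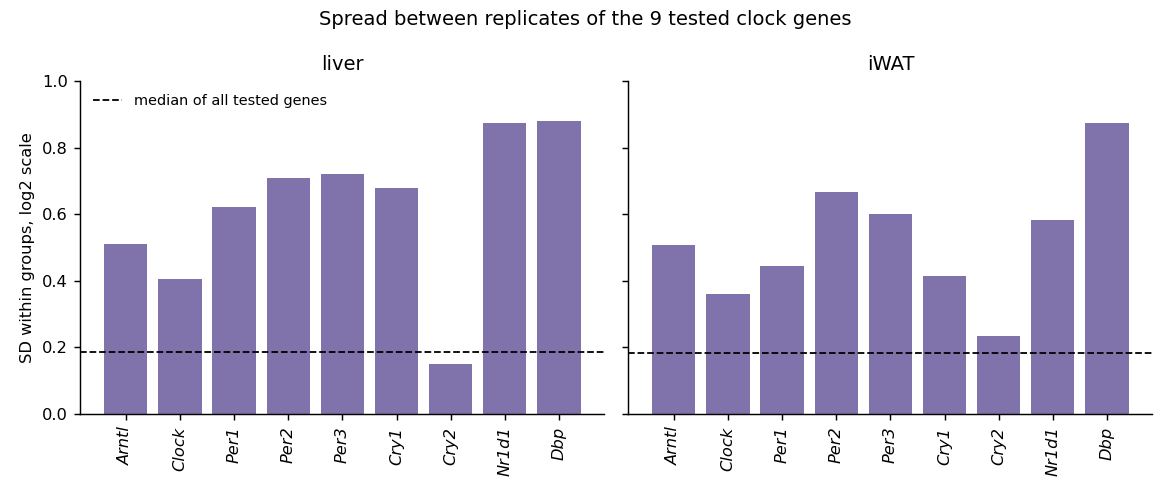
Residual SD of log2(FPKM + 1) around group means for each tested clock gene, liver and iWAT; the dashed line is the median of all tested genes (0.186 in liver and 0.184 in iWAT). Dbp has the longest bar in both tissues, and Cry2 in liver is the only bar below its line.

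Mrs2 KO against WT was compared on each diet by limma on log2(FPKM + 1), and a gene with a Benjamini-Hochberg adjusted p under 0.05 over all tested genes was called. In WD liver Cry2 was higher in KO than in WT, and it was the 1 member called of 9, where 21% of all tested genes were called. Cry2 averaged 9.82 ± 2.12 FPKM in KO WD liver and 6.68 ± 0.419 FPKM in WT WD liver (SD, n = 3 each), a log2 fold change of 0.48 ± 0.12 SE (1.39-fold, limma adjusted p = 0.0205). Of the other members, Nr1d1 had a log2 fold change of 0.85 ± 0.63 (adjusted p = 0.379) and Cry1 of 0.60 ± 0.49 (adjusted p = 0.43), both by limma, and neither passed. These SEs draw on the spread in all 4 liver groups. The SD of log2(FPKM + 1) of Nr1d1 was 0.204 in KO WD, 0.433 in WT WD, 0.689 in KO chow and 1.534 in WT chow liver. For Cry1 it was 0.11, 0.343, 0.699 and 1.105 in that order. A limma fit of the WD livers alone called 0 members, and its share of all genes is not given here. The libraries of KO and WT did not overlap for 3 members, Cry1, Cry2 and Nr1d1, all higher in KO, against 42.9% of all genes without overlap in either direction. Both counts, 1 called with all livers fitted and 3 without overlap, are smaller shares of the members than of all genes. The median log2 fold change was 0.34 over the 9 members and 0.07 over all tested genes. In the authors' deposited table for this comparison, which tests KO against WT, the 3 members listed are Cry1 at a log2 fold change of 0.76 (adjusted p = 0.0412), Cry2 at 0.52 (adjusted p = 0.0286) and Nr1d1 at 0.80 (adjusted p = 0.00493). The share of all genes listed there is not given here.

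On chow, and in iWAT on either diet, no member passed the test of KO against WT. In chow liver limma called 0 of 9 members and 0% of all genes, with 0 members and 675 genes at an unadjusted p under 0.05, and edgeR and DESeq2 also called 0 members, DESeq2 calling 16 genes in all. Cry2 did not overlap between KO and WT there, being higher in KO (log2 fold change 0.13 ± 0.12, limma adjusted p = 0.872), against 8.92% of all genes. In chow iWAT limma called 0 members and 0% of all genes (830 genes and 0 members at an unadjusted p under 0.05), edgeR called 0 genes and DESeq2 70, none a member. No member was free of overlap, against 10.8% of all genes. In WD iWAT limma called 0 of 9 members, where 4.25% of all genes were called, with 0 members at an unadjusted p under 0.05 and 0 called by edgeR or DESeq2. No member was free of overlap there, against 25% of all genes. The widest difference on WD in iWAT was that of Per2, at -0.38 ± 0.49 (limma adjusted p = 0.738). In the authors' deposited tables, the chow iWAT comparison lists 1 member, Npas2 at a log2 fold change of -2.12 (p = 0.0413, adjusted p = 1), and those of chow liver and WD iWAT list 0 members.

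The diet was compared within each genotype. In WT liver, Cry2 was lower on WD than on chow, and was the 1 member called of 9, where 19.2% of all genes were called. It averaged 6.68 ± 0.419 FPKM in WT WD liver and 9.61 ± 0.466 FPKM in WT chow liver (SD, n = 3 each), a log2 fold change of -0.47 ± 0.12 SE (0.723-fold, limma adjusted p = 0.0241). Per1, at 4.54, 3.16 and 2.99 FPKM in WT WD liver, against 3.47, 13.8 and 13.1 FPKM in WT chow liver, had a log2 fold change of -1.12 ± 0.45 (limma adjusted p = 0.113), with replicate 1 of chow as low as the WD livers. Cry1 had -1.06 ± 0.49 (limma adjusted p = 0.16). DESeq2 called Per1 (adjusted p = 0.0127) and Cry1 (adjusted p = 0.0156) besides Cry2, with 3223 of 13677 genes called in all. edgeR called only Cry2 of the members, with 2527 of 14019 genes called in all. Without replicate 1 of WT chow liver, limma also called Per1 (adjusted p = 0.0113) and Cry1 (adjusted p = 0.0269), so that library decides those calls. The share of all genes called without it is not given here. Only Cry2 was free of overlap between WT WD and WT chow liver, against 34.4% of all genes.

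In KO liver limma called 0 of 9 members between WD and chow, where 0.421% of all genes were called, and edgeR and DESeq2 called 0 members. At an unadjusted p under 0.05 there were 3 members: Nr1d1 at a log2 fold change of 1.73 ± 0.63 (limma adjusted p = 0.236), Per2 at -1.38 ± 0.51 (limma adjusted p = 0.244) and Per1 at -1.28 ± 0.45 (limma adjusted p = 0.225). Without overlap between KO WD and KO chow liver were 4 members, Nr1d1 higher and Per1, Per2 and Cry1 lower on WD, against 26.8% of all genes. None of these 4 passed the test over all genes.

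In iWAT, limma called 0 of 9 members for WD against chow in WT mice, where 2.12% of all genes were called, and 0 in KO mice, where 0% were called. edgeR and DESeq2 called 0 members in both, and in KO iWAT edgeR called 0 genes in all and DESeq2 162, with 1390 genes at an unadjusted p under 0.05. Members at an unadjusted p under 0.05 were Clock (0.73 ± 0.27, limma adjusted p = 0.164) and Per3 (-1.22 ± 0.44, limma adjusted p = 0.163) in WT. In KO these were Arntl (0.87 ± 0.38, limma adjusted p = 0.504), Per2 (-1.58 ± 0.49, limma adjusted p = 0.395) and Per3 (-1.55 ± 0.44, limma adjusted p = 0.37). Per3 was free of overlap in WT iWAT, lower on WD, against 27.3% of all genes. In KO iWAT Nr1d1 (higher on WD) and Per1, Per2 and Per3 (lower on WD) were free of overlap, 4 of 9 members against 15.1% of all genes. In iWAT the log2 fold changes of WD over chow for Per1, Per2, Per3, Cry1 and Dbp were -0.72, -1.58, -1.55, -0.15 and -1.35 in KO and -0.52, -1.03, -1.22, -0.52 and -1.37 in WT, all below 0. Those of Arntl, Clock and Nr1d1 were 0.87, 0.59 and 0.69 in KO and 0.68, 0.73 and 0.20 in WT, all above 0. None of these passed the test, and any difference in collection hour between diets cannot be told apart from the diet.

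Whether the KO difference depended on diet or tissue was tested directly. For the KO difference on WD minus that on chow, limma called 0 members in liver, where 0.549% of all genes were called, and 0 in iWAT, where 0% were called (1011 genes at an unadjusted p under 0.05). No member had an unadjusted p under 0.05 in either, and edgeR and DESeq2 called 0 members, DESeq2 calling 46 genes in iWAT and edgeR 0. Cry2 had an interaction of 0.35 ± 0.17 in liver (limma adjusted p = 0.34). The KO difference on WD in liver minus that in iWAT was called for 0 of 9 members against 7.43% of all genes, with Cry2 at 0.67 ± 0.22 (limma adjusted p = 0.068) the 1 member at an unadjusted p under 0.05. DESeq2 called Cry2 there (adjusted p = 0.0288), with 1883 of 14909 genes called in all, and edgeR called 0 members. For WD over chow in WT, liver minus iWAT, 0 of 9 were called by limma, edgeR or DESeq2 against 8.44% of all genes, with Cry2 at -0.56 ± 0.22 (limma adjusted p = 0.124) the 1 member at an unadjusted p under 0.05. The Cry2 calls in liver are therefore not shown to differ from iWAT or between diets by limma.

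**Figure D3:**
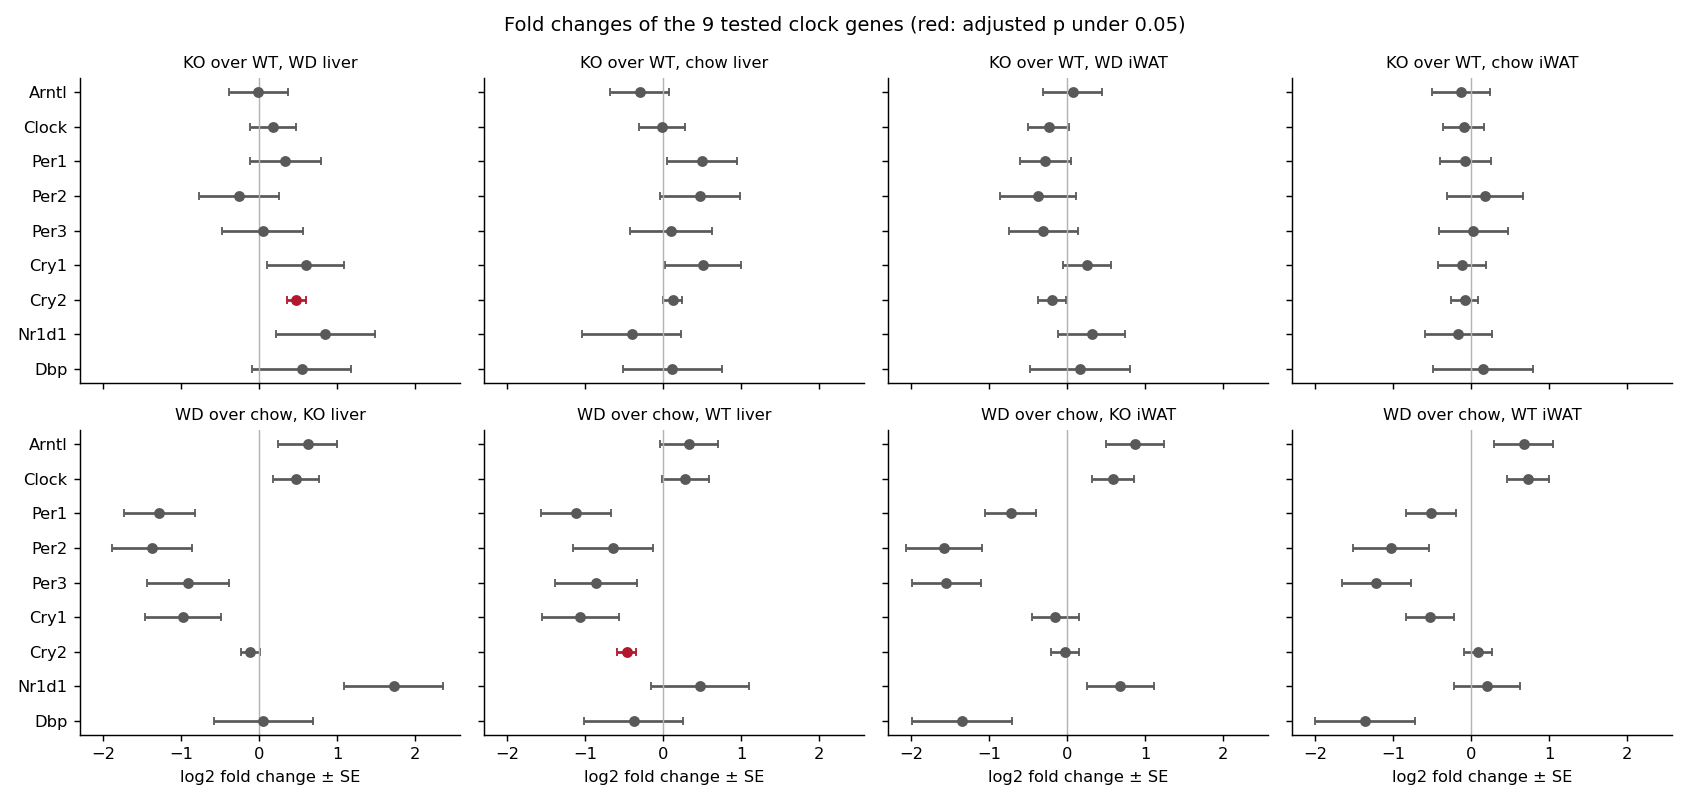
Log2 fold change of each tested clock gene with its SE in 8 comparisons, KO over WT and WD over chow, from limma; red marks an adjusted p under 0.05. The 2 red points are Cry2, at 0.48 for KO over WT in WD liver and -0.47 for WD over chow in WT liver.

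Both Cry2 calls turn on the WT WD livers and on how libraries are scaled. The deposited FPKM carry a scaling factor per library, and the effective library size they imply was 0.98 to 1.07 times the reads in WT WD liver and 0.769 to 0.854 times in the other livers. In CPM, the reads of a gene scaled only to the total reads of its library, Cry2 stood at 42.5, 63.3 and 46.1 CPM in KO WD liver, against 42, 42.4 and 45.1 CPM in WT WD liver. In chow livers it stood at 54.8, 51.7 and 50.3 CPM in KO and 44.6, 51.6 and 50.9 CPM in WT. On that scale KO and WT on WD overlapped. With total-read scaling, an alternative added after the data were seen, the log2 fold change was 0.19 ± 0.12 for KO over WT on WD (limma adjusted p = 0.295) and -0.16 ± 0.12 for WD over chow in WT (limma adjusted p = 0.356). This scaling moved the median of all genes by -0.24 and 0.25 in these comparisons. With it 337 genes were called higher and 3029 lower for KO over WT on WD, in place of 1490 higher and 1453 lower, and 3623 higher and 345 lower for WD over chow in WT, in place of 1363 higher and 1330 lower. Median-of-ratios and quantile scaling kept both Cry2 calls. Leaving out replicate 1 of WT WD liver ended both, at 0.43 (limma adjusted p = 0.0812) and -0.42 (limma adjusted p = 0.0861), as did, for WD over chow, leaving out replicate 3 of WT WD liver (-0.50, limma adjusted p = 0.0561) or replicate 3 of WT chow liver (-0.43, limma adjusted p = 0.0798). A fit of the libraries of KO and WT on WD alone gave 0.48 (limma adjusted p = 0.0678).

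Cell type markers in the WT WD livers moved with these calls. The 6 macrophage markers (Cd68, Trem2 and others) summed to 83.2 to 99.9 FPKM in KO WD liver, 325 to 979 FPKM in WT WD liver, 78.7 to 108 FPKM in KO chow liver and 78.1 to 206 FPKM in WT chow liver, and 6 of 6 were called lower in KO than in WT on WD. The 6 fibroblast markers (Col1a1, Dcn and others) summed to 38.4 to 41.1 FPKM in KO WD liver, 116 to 186 FPKM in WT WD liver, 32.8 to 39.4 FPKM in KO chow liver and 37.1 to 60.2 FPKM in WT chow liver, again with 6 of 6 called lower in KO on WD. The 6 hepatocyte markers summed to 32275 to 40411 FPKM in KO WD liver, 24006 to 30971 FPKM in WT WD liver, 53189 to 64663 FPKM in KO chow liver and 50748 to 78090 FPKM in WT chow liver, with 4 of 6 called higher in KO than in WT on WD. For WD over chow in WT liver, 6 of 6 macrophage and 6 of 6 fibroblast markers were called higher and 5 of 6 hepatocyte markers lower. None of these markers was at 0 in all libraries of a group. In such bulk samples fewer cells of a type and less RNA per cell cannot be told apart, and the part of cell make-up in the Cry2 values was not tested. Markers of other tissues also varied between single libraries: pancreatic acinar markers reached 1344 FPKM in a KO chow liver and 1078 FPKM in a WT WD liver, and skeletal muscle markers reached 878 FPKM in KO WD iWAT and 2599 FPKM in WT WD iWAT. Lymphocyte markers ranged over 5.07 to 177 FPKM in iWAT.

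Across the 12 libraries of a tissue the levels of the members were related to each other. Over 18 relations of Arntl with another member (9 a tissue), Pearson's r of log2(FPKM + 1) had a Benjamini-Hochberg adjusted permutation p under 0.05 for 7 in liver and 6 in iWAT. The share of all genes that would pass with Arntl was not taken, so these counts are not shown to be particular to the members. Clock ran with Arntl, with r = 0.948 in liver (permutation p = 2e-05, adjusted p = 0.00018, Spearman's rho = 0.916, permutation p = 8e-05) and r = 0.837 in iWAT (permutation p = 0.00059, adjusted p = 0.00152, rho = 0.769, permutation p = 0.00473). Per3 ran opposite to Arntl, with r = -0.92 in liver (permutation p = 8e-05, adjusted p = 0.00024, rho = -0.93, permutation p = 6e-05) and r = -0.955 in iWAT (permutation p = 2e-05, adjusted p = 0.00018, rho = -0.951, permutation p = 2e-05). Thus mice with high Arntl had high Clock and low Per3 in both tissues. After the 2 libraries farthest from the median of Arntl were left out, r was 0.922 for Clock and -0.887 for Per3 in liver, and 0.807 for Clock and -0.946 for Per3 in iWAT.

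Npas2 also ran with Arntl, at r = 0.796 in liver (permutation p = 0.00264, adjusted p = 0.00594, rho = 0.699, permutation p = 0.0145) and r = 0.948 in iWAT (permutation p = 3e-05, adjusted p = 0.00018, rho = 0.895, permutation p = 0.00016). Per2 ran opposite, at r = -0.78 in liver (permutation p = 0.00437, adjusted p = 0.00874, rho = -0.762, permutation p = 0.00524) and r = -0.917 in iWAT (permutation p = 4e-05, adjusted p = 0.00018, rho = -0.958, permutation p = 2e-05). Without the 2 farthest libraries, r was 0.801 for Npas2 and -0.729 for Per2 in liver, and 0.872 for Npas2 and -0.939 for Per2 in iWAT. Dbp also ran opposite to Arntl in iWAT, at r = -0.927 (permutation p = 6e-05, adjusted p = 0.000216, rho = -0.895, permutation p = 0.00026), and -0.861 without the 2 farthest libraries. In iWAT Per1 had r = -0.679 (permutation p = 0.0143, adjusted p = 0.0234, rho = -0.776, permutation p = 0.00446), and -0.881 without those libraries. Of deviations from the group means, r for Per1 in iWAT was weaker, at -0.448.

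Other liver relations passed less firmly. Arntl in liver left a gap, with 4 livers at or below 0.253 FPKM and 8 at or above 0.82 FPKM. The 8 livers above the gap are a subset chosen after the data were seen. It is cut on Arntl itself, which narrows the range of Arntl, so r and p over it describe those livers only. Dbp had r = -0.735 in liver (permutation p = 0.00659, adjusted p = 0.0119, rho = -0.664, permutation p = 0.0226), but -0.569 without the 2 farthest libraries (permutation p = 0.0857) and 0.0615 over the 8 livers above the gap (exact permutation p = 0.875). Per1 had r = -0.691 (permutation p = 0.0193, adjusted p = 0.0289, rho = -0.573, permutation p = 0.0555) and -0.621 without the 2 farthest libraries (permutation p = 0.0592). Cry2 had r = -0.619 (permutation p = 0.0332, adjusted p = 0.046, rho = -0.678, permutation p = 0.0182), and -0.554 without them (permutation p = 0.0974). Without those 2 libraries none of these 3 relations had a p under 0.05, on 10 livers in place of 12. Of deviations from the group means r was -0.825 for Dbp, -0.757 for Cry2 and -0.539 for Per1 in liver. Above the gap, Clock had r = 0.831 (exact permutation p = 0.00779), Npas2 0.831 (exact permutation p = 0.00694), Per3 -0.818 (exact permutation p = 0.00737) and Per2 -0.703 (exact permutation p = 0.0479), each over the 8 livers, with p adjusted over the 9 relations of 0.0234 for Clock, Npas2 and Per3, while Per2 did not pass (adjusted p = 0.108). Over the same 8 livers r was -0.51 for Per1 (exact permutation p = 0.198) and 0.0461 for Cry2 (exact permutation p = 0.919).

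Cry1 and Nr1d1 showed no relation with Arntl that passed. In liver r was -0.261 for Cry1 (permutation p = 0.41, adjusted p = 0.435, rho = -0.294, permutation p = 0.355) and 0.365 for Nr1d1 (permutation p = 0.242, adjusted p = 0.305, rho = 0.483, permutation p = 0.115). In iWAT r was -0.356 for Cry1 (permutation p = 0.254, adjusted p = 0.305, rho = -0.399, permutation p = 0.2), 0.285 for Nr1d1 (permutation p = 0.377, adjusted p = 0.424, rho = 0.364, permutation p = 0.247) and 0.0337 for Cry2 (permutation p = 0.916, adjusted p = 0.916, rho = -0.133, permutation p = 0.684). The strong relations were also present within groups: of deviations from the group means, r was 0.977 for Clock and -0.915 for Per3 in liver, and 0.72 for Clock, -0.953 for Per3 and -0.871 for Dbp in iWAT. For Npas2 it was 0.745 in liver and 0.952 in iWAT, and for Per2 -0.686 in liver and -0.848 in iWAT.

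**Figure D4:**
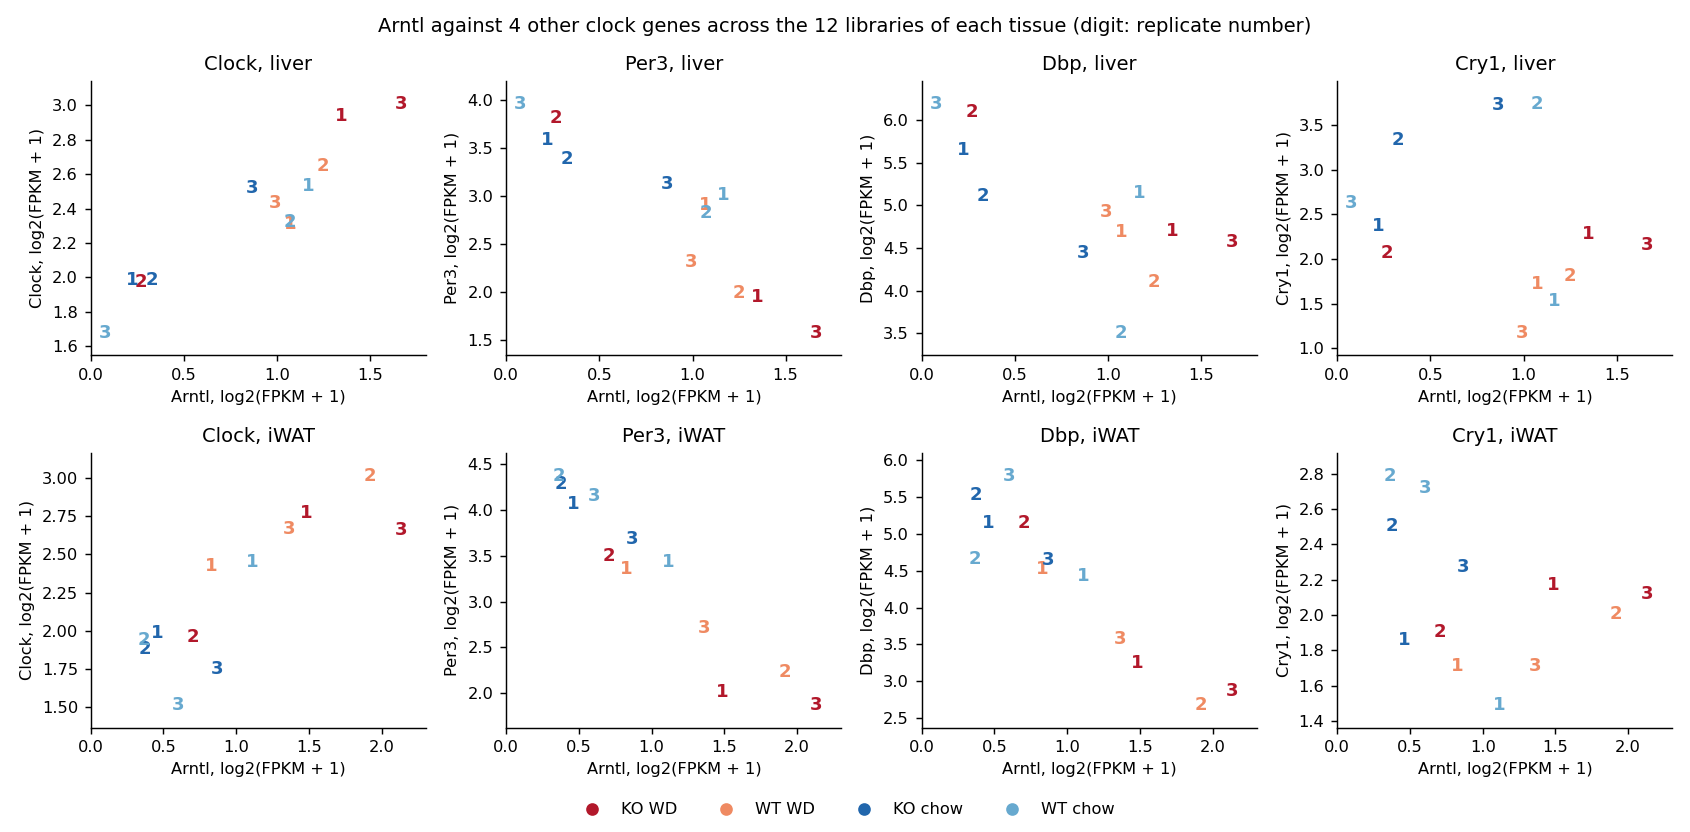
Log2(FPKM + 1) of Clock, Per3, Dbp and Cry1 (vertical) against that of Arntl (horizontal) in the 12 livers and the 12 iWAT libraries, coloured by group. Clock climbs with Arntl (r = 0.948 in liver), Per3 descends (r = -0.955 in iWAT), and Cry1 shows no such line (r = -0.261 in liver).

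Liver and iWAT libraries with equal genotype, diet and replicate number also went together, a set of 10 relations added after the data were seen. The labels do not say that such a pair came from 1 mouse. The share of all genes that would pass the same test was not taken. Over the 12 pairs, Per2 had r = 0.924 (permutation p = 7e-05, adjusted p = 0.0007, rho = 0.881, permutation p = 0.00036), Npas2 0.883 (permutation p = 0.00035, adjusted p = 0.00175, rho = 0.86, permutation p = 0.00067) and Per3 0.859 (permutation p = 0.00062, adjusted p = 0.00207, rho = 0.734, permutation p = 0.00839). Without the 2 pairs farthest from the median r was 0.873 for Per2, 0.827 for Npas2 and 0.735 for Per3. A high value in a liver was thus met by a high value in the iWAT of the same label for these genes, and Arntl deviated from its group mean to the same side in both tissues in 11 of 12 pairs, as did Per3. Npas2, Per2, Cry1 and Dbp did so in 10 pairs, Clock and Per1 in 8, Nr1d1 in 7 and Cry2 in 4.

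The other members that passed this test were Cry1 (r = 0.813, permutation p = 0.00162, adjusted p = 0.00278, rho = 0.888, permutation p = 0.00027), Nr1d1 (r = 0.8, permutation p = 0.00167, adjusted p = 0.00278, rho = 0.818, permutation p = 0.00177) and Clock (r = 0.777, permutation p = 0.00308, adjusted p = 0.0044, rho = 0.72, permutation p = 0.0104). Per1 (r = 0.776, permutation p = 0.00101, adjusted p = 0.00252, rho = 0.846, permutation p = 0.00087) and Arntl (r = 0.77, permutation p = 0.00388, adjusted p = 0.00485, rho = 0.706, permutation p = 0.0125) completed them. Without the 2 farthest pairs r was 0.816, 0.708, 0.685, 0.799 and 0.75 for Cry1, Nr1d1, Clock, Per1 and Arntl in that order. Dbp did not pass (r = 0.574, permutation p = 0.051, adjusted p = 0.0567, rho = 0.587, permutation p = 0.0495), and Cry2 had r = -0.28 (permutation p = 0.377, adjusted p = 0.377, rho = -0.301, permutation p = 0.342). Since groups were shared by the pairs, the deviations from group means were also taken, with r from 0.686 (Arntl) to 0.885 (Per2) for every member other than Cry2, which had 0.0235.

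**Figure D5:**
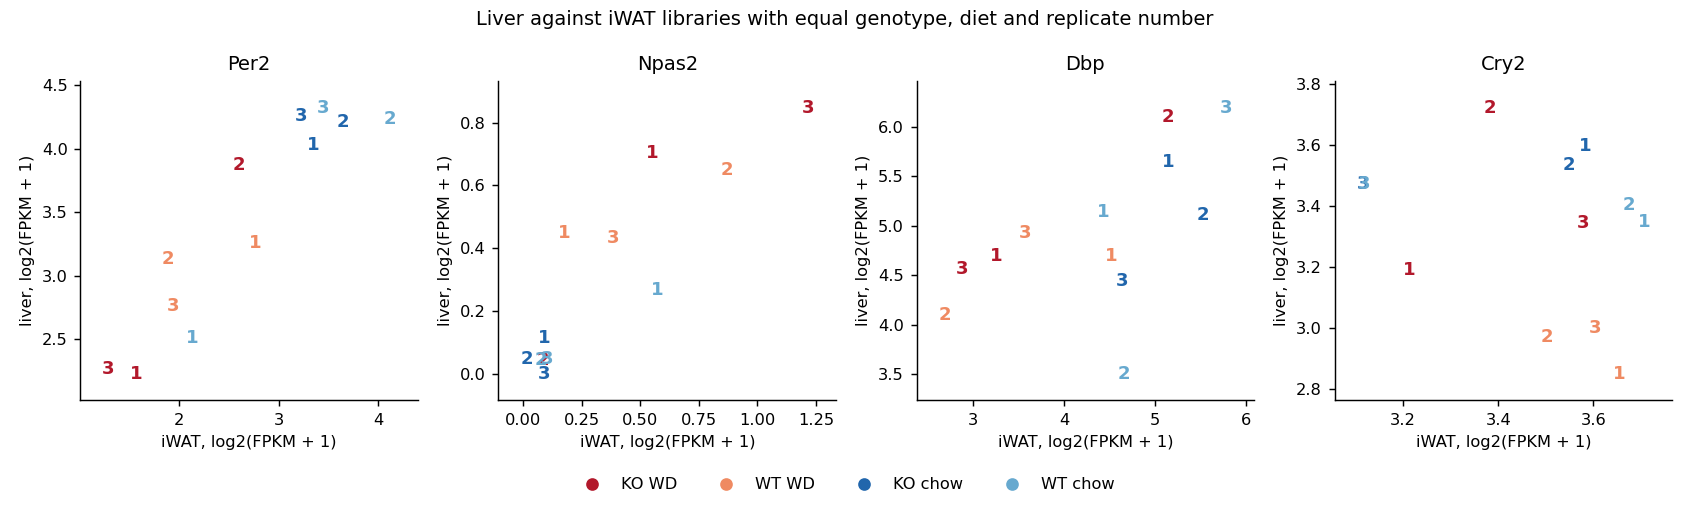
Log2(FPKM + 1) in liver (vertical) against iWAT (horizontal) for Per2, Npas2, Dbp and Cry2, 1 point per pair of libraries with equal group and replicate number. Per2 (r = 0.924) and Npas2 (r = 0.883) follow a line, Dbp does so more loosely (r = 0.574), and Cry2 does not (r = -0.28).

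Between tissues, liver was set against iWAT in WT chow mice. With libraries taken as independent, no member was called of 9, although 64% of all genes were, and no member was at an unadjusted p under 0.05 by limma, nor called by edgeR or DESeq2. No member was free of overlap, against 64.7% of all genes. The smallest adjusted p was that of Per3 (log2 fold change -0.72 ± 0.51, limma adjusted p = 0.224). The SEs of 0.16 for Cry2 to 0.67 for Dbp limit what could be seen. With equal replicate numbers taken as pairs, which the labels do not state, limma called Per2 (adjusted p = 0.0426) and Per3 (adjusted p = 0.0129). The share of all genes called in that fit is not given here. Values with libraries taken as independent depend on the scaling between tissues. Total-read scaling moved the median of all genes by -0.61, and scaling turned the sign of Arntl, Clock, Cry1, Dbp and Per2. With total-read scaling, 4 of 9 members (Per1, Per3, Cry2 and Nr1d1) were called, all lower in liver, where 61.6% of all genes were called lower.

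Genes near the loop were counted from lists chosen with earlier results known. Of 18 further clock genes (nuclear receptors, PAR bZIP factors, kinases and others), 16 were tested in each tissue. In WT liver, where 19.2% of all genes were called between WD and chow, 1 was called higher on WD and 1 lower. The higher one was the kinase gene Csnk1e (log2 fold change 0.52, limma adjusted p = 0.0341). The lower one was the nuclear receptor gene Rora, an activator at ROREs (-0.41, limma adjusted p = 0.0112). Rora stood at 6.25, 7.63 and 6.78 FPKM in WT WD liver, against 9.62, 9.43 and 9.2 FPKM in WT chow liver, without overlap, and like Cry2 it lost its call with total-read scaling (-0.10, limma adjusted p = 0.377). In WT iWAT 1 was called lower on WD and none higher, where 2.12% of all genes were called. In no other comparison of genotype or diet did limma call a further clock gene. Between tissues in WT chow mice, 6 were called higher in liver and 3 lower of 17 tested, where 64% of all genes were called.

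Among 12 clock output genes, 5 were called lower on WD than on chow in WT liver, where 11 of 12 were below 0 and the median log2 fold change was -1.26, against -0.06 for all genes, of which 19.2% were called. The 6 hepatocyte markers had a median of -1.23 there, with 5 of 6 called lower, and their part in the change of the output genes was not tested. Those named are Upp2, a uridine phosphorylase (-2.06, limma adjusted p = 0.012), Noct, a rhythmic NADPH phosphatase (-1.47, limma adjusted p = 0.0174), Lpin1, a phosphatidate phosphatase (-1.72, limma adjusted p = 0.023), and Alas1, the first enzyme of heme synthesis (-1.84, limma adjusted p = 0.0357). Upp2 stood at 19.3, 11.6 and 24.7 FPKM in WT WD liver, against 54.6, 65.8 and 127 FPKM in WT chow liver. With total-read scaling Alas1 lost its call (adjusted p = 0.0654), while Upp2 (adjusted p = 0.0193), Noct (adjusted p = 0.0345) and Lpin1 (adjusted p = 0.0423) kept theirs. In KO liver Noct alone was called, also lower on WD (-2.14, limma adjusted p = 0.0334), at 4.27, 3.57 and 3.81 FPKM on WD, against 19.6, 15.1 and 29 FPKM on chow. In KO over WT on WD, Upp2 (1.64, limma adjusted p = 0.0285) and Elovl3, a fatty acid elongase (2.88, limma adjusted p = 0.0479), were called higher in liver, where 21% of all genes were called and the hepatocyte markers had a median of 0.75, with 4 of 6 called higher. Elovl3 stood at 289, 31.6 and 240 FPKM in KO WD liver, against 4.58, 36.7 and 26.2 FPKM in WT WD liver, with replicate 2 of KO among the WT values, and with total-read scaling neither was called (adjusted p = 0.0628 for Elovl3 and 0.0619 for Upp2). In WD iWAT Elovl3 (5.28, limma adjusted p = 0.0134) and Gys2, a glycogen synthase (2.48, limma adjusted p = 0.0169), were called higher in KO of 10 tested, beside brown and beige adipocyte markers, which include Elovl3 and summed to 548 to 1785 FPKM in KO WD iWAT and 16.6 to 136 FPKM in WT WD iWAT.

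For the next 2 lists, 19.2% of all genes were called for WD over chow in WT liver. For KO over WT on WD the share was 21% in liver and 4.25% in iWAT. Of 11 genes that answer to feeding or glucocorticoids, which include Per1, 2 were called lower on WD in WT liver. These were Pck1, the gluconeogenic carboxykinase (-1.74, limma adjusted p = 0.00268), and Tsc22d3, a glucocorticoid target (-1.48, limma adjusted p = 0.0439, but 0.0941 with total-read scaling). In KO over WT on WD in liver Pck1 was higher (1.31, limma adjusted p = 0.00868) and the kinase gene Sgk1 lower (-0.55, limma adjusted p = 0.028). In WD iWAT Pdk4, a kinase that restrains pyruvate oxidation, was higher in KO (2.61, limma adjusted p = 0.0235). Of 5 acute response genes, Atf3 was called higher on WD in WT liver (1.78, limma adjusted p = 0.00884) and lower in KO than in WT on WD (-1.31, limma adjusted p = 0.0293), where Ier2 was higher (0.81, limma adjusted p = 0.0477, but 0.197 with total-read scaling). Quantile normalization ended the calls of Csnk1e, Alas1, Gys2 and Tsc22d3 for WD over chow in WT liver, of Noct in KO liver, and of Upp2, Elovl3, Pck1 and Ier2 for KO over WT on WD in liver, with adjusted p from 0.0506 to 0.107, and median-of-ratios scaling those of Elovl3 (adjusted p = 0.0536) and Ier2 (adjusted p = 0.0607). No diet or genotype call given here for a list gene changed direction with total-read, median-of-ratios or quantile scaling.

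The genes most like Arntl and Dbp were named by Pearson's r of log2(FPKM + 1) over the 12 libraries of a tissue, among genes with a mean of at least 3 FPKM, as a description. In iWAT the 5 genes most like Dbp, of 8063 compared, were Nr1d2 (r = 0.971), Tef (r = 0.928), Hlf (r = 0.901), Slc5a6 (r = 0.889) and Hscb (r = 0.884). The first 3 are clock genes of the further list: Nr1d2 is the paralog of Nr1d1, and Tef and Hlf are the PAR bZIP relatives of Dbp. In liver, of 7789 compared, they were Lrrc45 (r = 0.901), Nr1d2 (r = 0.9), Slc35a5 (r = 0.88), Plekhg6 (r = 0.873) and Prps2 (r = 0.864). For Arntl they were Lrfn3 (r = 0.944), Clpx (r = 0.935), Nedd4l (r = 0.924), Caprin1 (r = 0.904) and Chka (r = 0.896) in liver. In iWAT they were Dtx4 (r = 0.954), Tcf20 (r = 0.934), Xrcc3 (r = 0.926), Zfyve1 (r = 0.901) and Cct2 (r = 0.899). Nr1d2 was thus the 1 gene named for Dbp in both tissues, and Arntl had none in common.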

How the data were processed

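RNA-seq of 24 libraries was analysed. Poly-T beads captured the RNA, per the labels' protocols. HISAT2 2.0.5, DESeq2 1.20.0 and mm10 are named in the submitters' processing notes, while the sources used here name neither the read counter nor the use of strand. Values were the authors' deposited FPKM of 54532 genes, per the file headers. The 4 deposited tables that compare KO with WT hold each listed gene's log2 fold change with its p-value and adjusted p-value, per the file headers, which name no test, and the deposited read counts of the genes listed. A further 56 columns of values per sample in the deposited tables were not used.

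FPKM times gene length and 1 constant a library gave whole reads within 0.01 reads for 540911 values (100%), and all 64434 deposited counts compared equalled them. A tissue's 4 groups were fitted in 1 model by limma 3.58.1 (R 4.3.3) on log2(FPKM + 1), with variance trend and robust prior, over genes with a mean of at least 0.5 FPKM (14019 in liver, 14685 in iWAT). Contrasts between tissues came from all 24 libraries (15254 genes). Genes with a Benjamini-Hochberg adjusted p under 0.05 were called. The pseudocount shrinks fold changes of low genes such as Arntl. Count tests on the recovered reads (edgeR 4.0.16, DESeq2 1.42.0), other scalings, filters and pseudocounts, a replicate block and leaving out libraries were alternatives. Relations used permutation tests with 100000 resamples, two-sided, the smallest p they can give being 1e-05. The code was tested on simulated data. Tables and plots used Python 3.11.15, pandas 2.3.3, numpy 2.4.6 and matplotlib 3.10.9.

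The members and all gene lists were chosen with earlier results of these data known. Members are described in full where called or where libraries of 1 group differ by a log2 of 2 or more, otherwise by range. From each list up to 4 called genes with the smallest p are named in a comparison. For Arntl and Dbp the 5 most alike genes are named. 1 gene of the lists is not reported here. P-values of the comparisons between groups are set against the spread between these mice. The permutation tests shuffled all 12 libraries of a tissue, or pairs of them, across the 4 groups. Their p-values therefore also draw on differences between groups, and the deviations from group means carry no p-value. Residuals of libraries with the same replicate number all correlated above 0.1 for 1 comparison within a tissue, KO over WT in chow iWAT (r = 0.184, 0.127 and 0.407 across genes). For unequal numbers in that comparison r ran from -0.327 to 0.258, so high values were not confined to equal numbers. A block on the replicate number changed no call there.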

Additional observations from a re-analysis of the deposited data

Results flagged for a closer look

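Noct, Pck1 and Pdk4, genes of the lists beside the clock, had effects that differed between liver and iWAT by limma's test of the difference itself over all 24 libraries. Of the 9 clock genes tested there (Npas2 was not), limma called none. Genes below the filter on low values in either tissue's own fit, such as Upp2 in iWAT, were left out. The libraries entered that fit as independent samples.

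For WD over chow in WT mice, the log2 fold change of Noct was -1.47 in liver and 0.62 in iWAT (limma adjusted p = 0.0174 and 0.224), and liver minus iWAT was -2.09 ± 0.46 (SE, limma adjusted p = 0.0107). Noct stood at 2.68, 5.1 and 3.6 FPKM in WT WD iWAT, against 2.3, 2.37 and 1.57 FPKM in WT chow iWAT, without overlap. For Pck1 the log2 fold change was -1.74 in liver and -0.35 in iWAT, and liver minus iWAT was -1.39 ± 0.41 (limma adjusted p = 0.0404), a call that ended with quantile normalization (adjusted p = 0.273) and with total-read scaling (adjusted p = 0.112).

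For KO over WT on WD, the log2 fold change of Pdk4 was -0.61 in liver and 2.61 in iWAT, and liver minus iWAT was -3.22 ± 0.63 (limma adjusted p = 0.00537). Pdk4 stood at 268, 110 and 100 FPKM in KO WD iWAT, against 19.2, 19.7 and 30.8 FPKM in WT WD iWAT, without overlap. In liver it stood at 1.83, 1.59 and 3.61 FPKM in KO WD mice, against 2.43, 6.16 and 3.89 FPKM in WT WD mice, with overlap. The brown and beige adipocyte markers summed to 548 to 1785 FPKM in KO WD iWAT and 16.6 to 136 FPKM in WT WD iWAT, and their part in the Pdk4 difference was not tested. With median-of-ratios, quantile and total-read scaling the calls of Noct and Pdk4 remained.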

How the results depend on the processing

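Of 13 counts of clock genes called, 9 came out the same under every alternative tried, and 215 of 230 alternatives in all gave the same count. All 9 are counts of 0, some from comparisons where limma called 0% of all genes, so their agreement says little. The filter at a mean of 5 FPKM left Arntl and Clock untested, and in iWAT also Cry1. The counts that changed were as follows. For KO over WT in WD liver (1 called), total-read scaling and a fit of only the libraries compared gave 0, and leaving out single libraries gave 0 to 1. For WD over chow in WT liver (1 called), total-read scaling gave 0, DESeq2 3, and leaving out single libraries 0 to 3. For liver over iWAT in WT chow mice (0 called), total-read scaling gave 4, quantile normalization 1 (Cry2), the replicate block 2 (Per2 at 0.46, limma adjusted p = 0.0426, and Per3 at -0.72, limma adjusted p = 0.0129), and leaving out single libraries 0 to 1. For KO over WT on WD, liver minus iWAT (0 called), DESeq2 gave 1 and leaving out single libraries 0 to 1, the 1 being Cry2 without replicate 3 of KO WD iWAT. The replicate block changed no other count. Outside the replicate block, numbers were not taken as pairs for liver over iWAT: residuals of equal numbers in liver and iWAT of WT chow correlated at 0.174, 0.0506 and 0.00633 across genes. Of 9 relations with Arntl in liver (7 passing), 4 passed after quantile normalization and 4 without the 2 libraries farthest from the median of Arntl, and 5 to 7 when single libraries were left out. In iWAT 5 to 6 passed under all alternatives, and between liver and iWAT 7 to 9. Quantile normalization was done without Npas2, which lay below the filter on low values, so relations of Npas2 were not run with it. The counts after quantile normalization are thus out of fewer relations than the others. Total-read scaling, the subset of livers above the gap in Arntl and the relations between tissues were chosen after seeing the data. Scaling turned the sign of Arntl, Clock and Per3 for KO over WT in WD liver, at sizes up to 0.20, of Clock and Cry1 for the liver interaction, of Per3 for KO over WT in chow iWAT, of Arntl in WD iWAT, of Dbp for the iWAT interaction, of Arntl and Per2 for KO over WT on WD between tissues, and of no member in any comparison of WD with chow. The cause of these changes was not tested. Arntl on 5 to 192 reads in liver and Npas2 on 45 at most are the members that depth limits.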

Other observations

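Residuals from the group means, correlated across all genes, bear on the pairing of liver and iWAT libraries by replicate number. In WT WD mice they were 0.226, 0.348 and 0.247 for equal numbers, against -0.254 to -0.0322 for unequal numbers. In KO chow mice they were 0.0919, 0.154 and 0.177 for equal numbers, against -0.134 to 0.011 for unequal ones. In KO WD mice they were 0.0494, 0.134 and 0.0691 for equal numbers, with 0.0587 as the highest of the unequal ones. In WT chow mice they were 0.174, 0.0506 and 0.00633 for equal numbers, with 0.0532 as the highest of the unequal ones.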
